A study of Mus musculus with 13 samples.

Results

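The genes described here are 10 fatty acid desaturases and elongases of the mouse, the stearoyl-CoA desaturases Scd1 and Scd2, the front-end desaturases Fads1, Fads2 and Fads3, and the elongases Elovl1, Elovl2, Elovl3, Elovl5 and Elovl6. They were taken by name from the 23361 genes of the deposited tables. Tumour RNA was sequenced from a mouse model of hepatocellular carcinoma, the main cancer of hepatocytes, in which the Hippo kinases Mst1 and Mst2 are lost from the liver. Every animal carried the Mst1-/-; Mst2Flox/Flox genotype on a mixed C57BL/6 and 129Sv background and had received an adenovirus with Cre, so that controls and treated animals share the loss of both kinases. The 8 control libraries (siLuc) came from tumours of animals given siLuciferase-LNPs, lipid nanoparticles with an siRNA that has no target in the mouse, and the 5 treated libraries (siYap) from animals given siYap-LNPs, whose siRNA targets the co-activator Yap, each for 9 days. Ages are not in the labels, nor is a link from each library to one animal, so p-values rest on the scatter among the libraries, part of which may be technical. The RNA is that of tumour pieces with all the cells they hold.

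Desaturases place double bonds in fatty acids and elongases lengthen them by adding carbon units from malonyl-CoA. Scd enzymes turn saturated fatty acids made by the cell into monounsaturated ones. Fads2 and Fads1 act in turn, with Elovl5 and Elovl2 between and after them, to build long polyunsaturated fatty acids such as arachidonic and docosahexaenoic acid from dietary precursors. Elovl6 extends palmitate to stearate, and Elovl1 and Elovl3 serve very long saturated and monounsaturated chains. In adult mouse liver Scd1 is the main stearoyl-CoA desaturase, while Scd2 is known from fetal and newborn liver and from brain. Most of these genes respond to the SREBP transcription factors, and several also to the liver X receptors.

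The library totals ran from 23637021 to 37043914 estimated fragments. siYap replicates 1 and 3 had the smallest totals. They also held most Rn45s, the precursor of ribosomal RNA, with 1160 and 1882 in CPM, the counts divided by library size, while the rest ranged from 479.5 to 811.8. siLuc replicate 8 held 28874 fragments on the Y-linked genes and 10.61 CPM of Xist, the RNA of the inactive X chromosome. All other libraries held at most 11 Y-linked fragments and 1179 to 3410 CPM of Xist. By these genes siLuc replicate 8 read as male and all other libraries, with every siYap library among them, as female. FPKM scales fragments to the length of the transcript and the size of the library, so that levels of different genes can be set side by side, and means of FPKM are given with the SD over the 8 siLuc or the 5 siYap libraries. Yap1, the target of the siRNA, averaged 9.999 ± 1.37 FPKM over the controls against 3.29 ± 0.845 FPKM over the treated libraries, which all lay lower (adjusted p = 2.36e-05, edgeR). Stk4, the gene of Mst1, had 0 to 16 fragments per siLuc and 4 to 12 per siYap library. Stk3, the gene of the floxed Mst2, averaged 6.12 and 5.22 FPKM, a whole-gene value that does not check the deletion. Summed FPKM of 10 hepatocyte markers lay between 11820 and 19080 in siLuc and between 11360 and 21450 in siYap libraries, so the labelled tissue showed its own markers in both groups.

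Of the 10 genes, 9 passed the filter on low counts and entered the test. In siYap tumours 3 of them rose (Fads1, Elovl2 and Elovl6), 2 fell (Scd2 and Fads3) and 4 did not pass the test (Scd1, Fads2, Elovl1 and Elovl5). Of all 15132 genes tested, 30.8% were called, 16.0% higher and 14.8% lower, which is the background for the 5 calls among these 9 genes. The median log2 fold change of the 9 genes was 0.09, against 0 over all tested genes. Calls are those of edgeR's quasi-likelihood test at a Benjamini-Hochberg adjusted p under 0.05 over all tested genes, and the fold changes below are log2 values of siYap over siLuc with their standard errors. In bulk RNA, fewer cells that express a gene and less RNA of it per cell cannot be told apart. The plot of fitted changes sets the 9 genes in order.

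**Figure D1:**
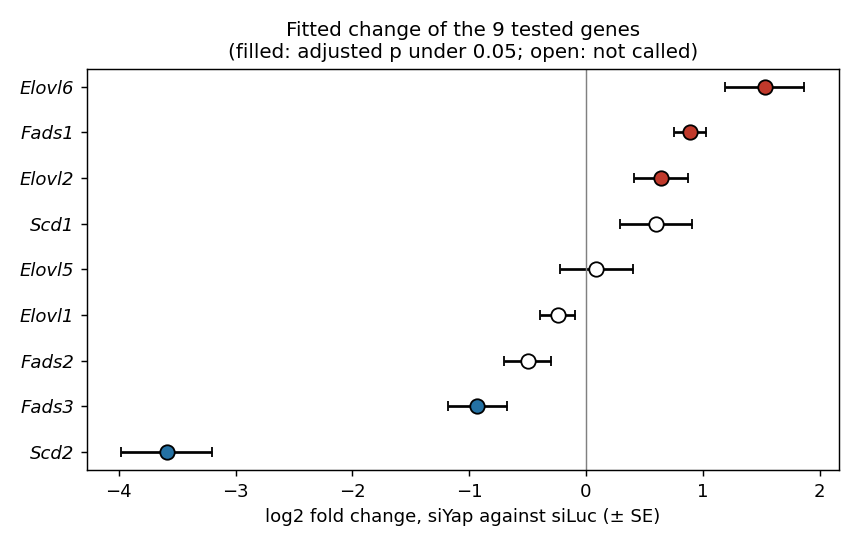
Log2 fold change of each tested gene in siYap against siLuc tumours, with its standard error, from 8 siLuc and 5 siYap libraries (filled points passed an adjusted p of 0.05, open points did not). Scd2 lies far below the other 8 genes at -3.59, and Elovl6 is the highest at 1.53.

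Scd1 and Scd2 lie close together in a cluster with Scd3 and Scd4 on chromosome 19 (mouse build mm10, GENCODE M21 annotation), Scd2 at 44293674 to 44306864 on the plus strand and Scd1 at 44394455 to 44407879 on the minus strand. Their coding sequences are 89.8% identical when aligned, and the longest stretch without a difference is 147 bases. This matters for the values, since a read from such a stretch fits both genes. The first pair below is the 60-base coding window with the most differences between them, with the 18 differing bases in capitals, and the second pair is a 60-base window with no difference. Bases are read from the GENCODE M21 transcripts, 5′ to 3′.
Scd1, coding bases 103 to 162: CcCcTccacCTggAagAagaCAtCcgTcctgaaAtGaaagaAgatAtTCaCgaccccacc
Scd2, coding bases 112 to 171: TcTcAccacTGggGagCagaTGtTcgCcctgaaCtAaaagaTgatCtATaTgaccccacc
Scd1, coding bases 442 to 501: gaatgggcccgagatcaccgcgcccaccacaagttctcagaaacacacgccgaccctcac
Scd2, coding bases 451 to 510: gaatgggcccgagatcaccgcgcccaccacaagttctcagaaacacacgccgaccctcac
Over the whole transcripts, only 2.68% of the 50-base windows of Scd2 also occur in Scd1, and 3.03% of those of Scd1 in Scd2. The way such reads were shared out is not stated. The siYap libraries held 140161 to 302166 fragments of Scd1 and 422 to 1646 of Scd2, so reads of Scd1 counted to Scd2, or the reverse, could change Scd2 and its share by far more than these percentages, and the true level of Scd2 in siYap is uncertain.

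Scd2 fell in every siYap library. It measured 30.2 FPKM at the lowest, 56.7 at the median and 80.7 at the highest of the siLuc libraries, and 10.3, 2.43, 4.27, 3.42 and 2.30 FPKM in siYap replicates 1 to 5. All 5 treated libraries lay below all 8 controls, as did those of 5.66% of the tested genes. The fitted log2 fold change was -3.59 ± 0.39 (adjusted p = 2.42e-05, edgeR), which is 12.0-fold lower. By size of fall Scd2 ranked 102 among the 15132 tested genes. siYap replicate 1 held the most Scd2 of the treated libraries, and without siYap replicates 1 and 3, the libraries of low total and high Rn45s, the log2 fold change was -4.31 (adjusted p = 4.59e-06). Libraries whose code in the file name begins with 6, 7 or 8 gave differences of -3.79, -3.52 and -4.69 on the log2(FPKM + 0.1) scale, the last from 1 library of each group. The control of that last pair was siLuc replicate 8, the library that read as male. The counts behind the low values were 422 to 1646 fragments.

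Scd1, the abundant paralog, showed no such fall. It was the highest of the 10 genes in both groups, at 293.7, 854.0 and 1434 FPKM at the lowest, the median and the highest siLuc library. The siYap replicates 1 to 5 stood at 999.8, 818.6, 2015, 1793 and 1014 FPKM. Replicates 3 and 4 lay above all controls and the other three lay within the siLuc range. The log2 fold change of 0.60 ± 0.31 did not pass the test (adjusted p = 0.144, edgeR). The FPKM of both genes summed to 936 ± 313 over the siLuc and 1333 ± 537 over the siYap libraries, and the groups overlapped.

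The share of Scd2 in the summed FPKM of both genes separated the groups. It lay between 3.46% and 21.6% in siLuc, with a median of 5.51%, and between 0.191% and 1.02% in siYap, with a median of 0.226%. The highest control was siLuc replicate 2, which combined the highest Scd2 with the lowest Scd1 of that group, and the highest treated library was siYap replicate 1. Without siYap replicate 1 the siYap mean went from 0.388% to 0.231%. The share is a composition of the listed genes and was not tested. The other 2 genes of the cluster were scarce, Scd4 at 0.185 ± 0.0551 and 0.263 ± 0.0351 FPKM, and neither Scd3 nor Scd4 passed the test (adjusted p of 0.703 and 0.182, edgeR).

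**Figure D2:**
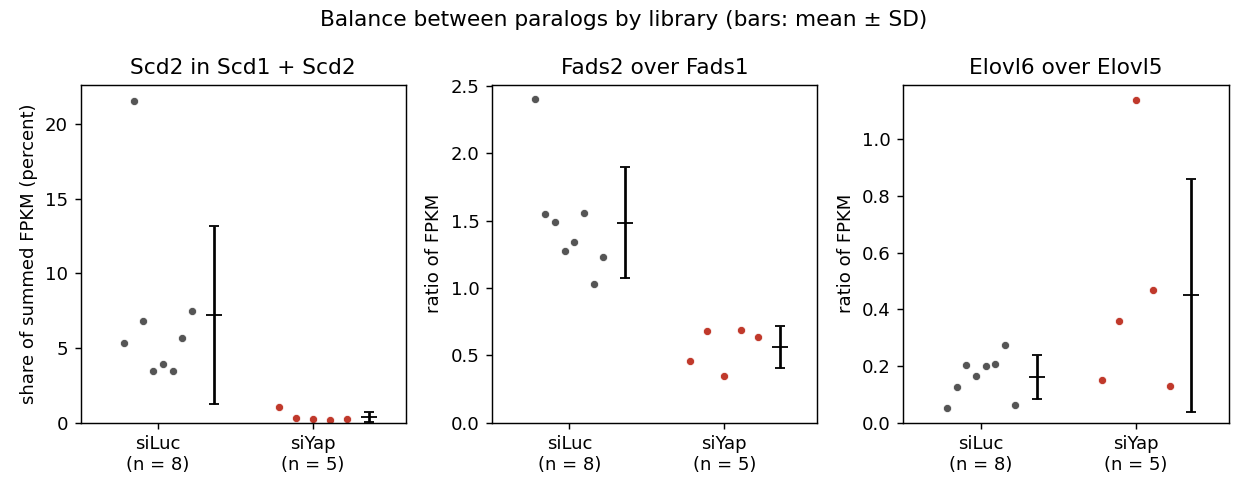
Scd2 as a share of summed Scd1 and Scd2 FPKM, and the FPKM ratios of Fads2 to Fads1 and of Elovl6 to Elovl5, one point per library (8 siLuc, 5 siYap) with mean and SD. The siYap points lie below all siLuc points in the first and second panels and overlap with them in the third.

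The front-end desaturases went in different directions although they sit side by side on chromosome 19, Fads3 at 10041569 to 10060110, Fads2 at 10062765 to 10101746 and Fads1 at 10182888 to 10196877 (mm10). Their coding sequences are less alike than those of the Scd genes, at 67.0% identical positions between Fads1 and Fads2 and 70.1% between Fads2 and Fads3. No 50-base window is shared between Fads1 and Fads2, and 5 of 3101 windows of Fads2 occur in Fads3.

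Fads1, the delta-5 desaturase, rose in every siYap library. It was the steadiest of the 10 genes among the controls, at 71.0, 81.3 and 95.8 FPKM at the lowest, the median and the highest library. The siYap replicates 1 to 5 read 98.0, 139.4, 196.2, 171.6 and 146.8 FPKM, so that all lay above all controls, as for 5.57% of the tested genes, with replicate 1 only just above. The fit gave a log2 fold change of 0.89 ± 0.14 (adjusted p = 0.000388, edgeR), a 1.85-fold rise.

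Fads2, the delta-6 desaturase of the first step, did not rise with it. It stood at 92.9, 116.8 and 170.8 FPKM at the lowest, the median and the highest siLuc library and at 44.99, 95.1, 67.5, 117.6 and 93.5 FPKM in siYap replicates 1 to 5. siYap replicates 1 and 3 lay below all controls and the other treated libraries lay among them. Its log2 fold change of -0.50 ± 0.20 missed the threshold (adjusted p = 0.0642, edgeR). It passed without siYap replicate 4 (adjusted p = 0.0273) and under upper-quartile scaling (0.0397), and went to -0.24 without siYap replicates 1 and 3 (0.380). Split by file-code digit 6, 7 and 8, the differences on the log2(FPKM + 0.1) scale were -1.16, -0.34 and 0.01.

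The ratio of Fads2 to Fads1 FPKM lay between 1.03 and 2.40 in siLuc and between 0.344 and 0.686 in siYap. By FPKM, Fads2 was thus above Fads1 in all 8 controls and below it in all 5 treated libraries. In fragments, not scaled for length, Fads2 lay below Fads1 in both groups. The siLuc libraries held 4515 to 8403 fragments of Fads2 and 8686 to 11507 of Fads1, and the siYap libraries 2081 to 5112 and 11011 to 20668. Which gene is the more abundant in the controls therefore rests on the length scaling of the FPKM. This ratio was not tested.

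Fads3, a desaturase that acts on sphingoid bases, fell. It measured 9.97, 18.4 and 30.3 FPKM at the lowest, the median and the highest siLuc library and 6.54, 14.4, 12.5, 8.89 and 7.46 FPKM in siYap replicates 1 to 5. The groups overlapped: siYap replicates 2 and 3 lay above siLuc replicate 1, the lowest control, and siYap replicate 2 also above siLuc replicate 6 (13.4 FPKM). Fads3 had a log2 fold change of -0.93 ± 0.25 (adjusted p = 0.0113, edgeR). Without siYap replicates 1 and 3 the size was the same, -0.93, and the adjusted p was 0.0557.

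**Figure D3:**
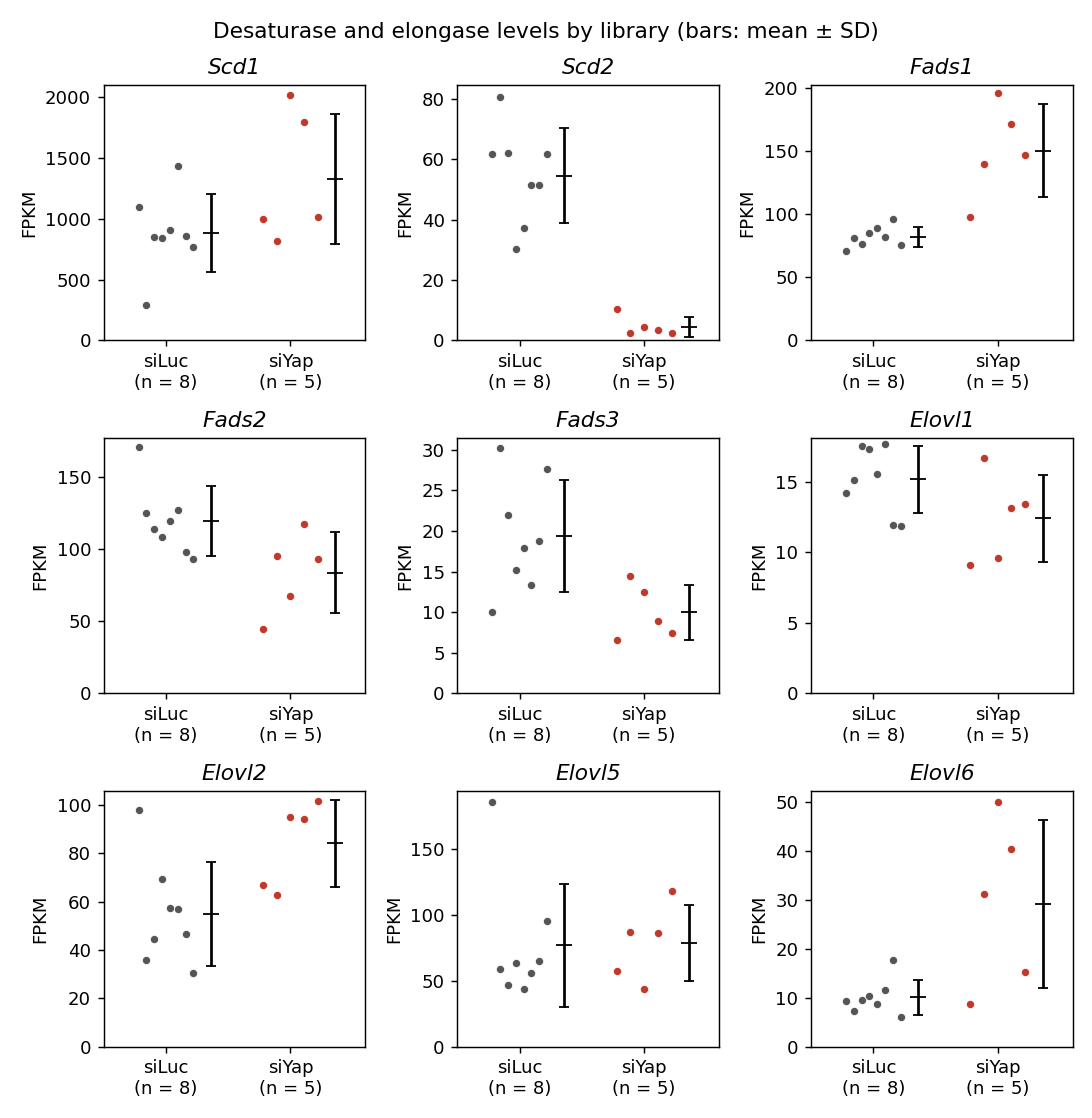
FPKM of the 9 tested genes in each library, one point per library in order of replicate number (8 siLuc in grey, 5 siYap in red), with mean and SD. Scd2 and Fads1 are the 2 genes whose groups do not overlap, and siYap replicate 3 is the highest treated library for Scd1, Fads1 and Elovl6.

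Among the elongases, Elovl6 changed most. Its siLuc libraries held 5.99 FPKM at the lowest, 9.43 at the median and 17.7 at the highest, and siYap replicates 1 to 5 held 8.65, 31.3, 50.05, 40.4 and 15.2 FPKM. Replicates 2, 3 and 4 lay above every control, while replicates 1 and 5 lay within their range. The log2 fold change was 1.53 ± 0.34 (adjusted p = 0.00479, edgeR), a 2.88-fold rise, and it was 1.25 without siYap replicate 3 (adjusted p = 0.0209) and 1.75 without siYap replicate 1 (0.000709).

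Elovl2, the elongase of the longest polyunsaturated chains, rose by a smaller amount and with less certainty. It stood at 30.7, 51.7 and 98.0 FPKM at the lowest, the median and the highest siLuc library and at 66.8, 62.6, 95.3, 94.3 and 101.8 FPKM in siYap replicates 1 to 5. The highest control, siLuc replicate 1, lay within the treated range, as did siLuc replicate 4 at 69.63 FPKM. The rise was 0.64 ± 0.23 on the log2 scale (adjusted p = 0.0407, edgeR). By file-code digit 6, 7 and 8 the differences on the log2(FPKM + 0.1) scale were 0.13, 0.8 and 1.73, the last from 1 library of each group. The control for digit 8 was siLuc replicate 8, the library that read as male. The call was lost on leaving out any one of siLuc replicates 2, 3, 5, 6, 7 and 8 or of siYap replicates 3, 4 and 5, with adjusted p of 0.0519 to 0.0972. Summing the counts of libraries that share a file-name number also ended it (0.0593), as did leaving out the treated replicates 1 and 3 (0.0939).

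Elovl5, which lengthens the products of Fads2, did not pass the test. It stood at 43.7, 61.0 and 186.0 FPKM at the lowest, the median and the highest siLuc library and 57.2, 86.95, 44.0, 86.4 and 117.8 FPKM in siYap replicates 1 to 5. siLuc replicate 1 stood well above the rest in FPKM, and less so in fragments, at 13972 against 10958 in siLuc replicate 8. The log2 fold change was 0.09 ± 0.31 (adjusted p = 0.839, edgeR). Its sign turned without siYap replicate 5 (-0.12, adjusted p = 0.803) and with the file-code digit as a term (-0.03, adjusted p = 0.941). Within digits 6, 7 and 8 the differences on the log2(FPKM + 0.1) scale were -0.57, 0.18 and 0.3.

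Elovl1 likewise did not pass the test. It held 11.9, 15.3 and 17.7 FPKM at the lowest, the median and the highest siLuc library and 9.11, 16.7, 9.61, 13.1 and 13.4 FPKM in siYap replicates 1 to 5, with replicates 1 and 3 below all controls. Its difference on the log2 scale was -0.24 ± 0.15 (adjusted p = 0.229, edgeR). Elovl3, which in mouse liver is known to be higher in males, was hardly detected. Its 8 siLuc libraries held 1, 0, 0, 0, 7, 4, 0 and 1 fragments and its 5 siYap libraries 0, 0, 0, 0 and 1, so it did not enter the test and no fold change is given. The library with Y-linked fragments, siLuc replicate 8, was one of those with 1 fragment of Elovl3.

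The order of the genes by level differed between the groups. In siLuc tumours the mean FPKM ran from Scd1 (881) through Fads2 (119.6), Fads1 (82.0), Elovl5 (76.9), Elovl2 (54.96), Scd2 (54.6), Fads3 (19.4), Elovl1 (15.2) and Elovl6 (10.1) to Elovl3 (0.0264). In siYap tumours it ran from Scd1 (1328) through Fads1 (150.4), Elovl2 (84.2), Fads2 (83.7), Elovl5 (78.5), Elovl6 (29.1), Elovl1 (12.4), Fads3 (9.97) and Scd2 (4.54) to Elovl3 (0.00341). Scd2 moved from the sixth place to the ninth and Elovl6 from the ninth to the sixth. Only Scd1 at the top and Elovl3 at the bottom had ranges apart from their neighbour in both groups. All other neighbours overlapped, and in siLuc Elovl2 exceeded Scd2 in 4 of 8 libraries.

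Spread among the libraries also differed between the genes. Among siLuc libraries the SD was 9.70% of the mean for Fads1, 15.5% for Elovl1, 20.05% for Fads2 and 29.1% for Scd2, and it reached 60.9% for Elovl5. Among siYap libraries it was 21.5% for Elovl2, 24.5% for Fads1, 59.1% for Elovl6 and 72.7% for Scd2. siLuc replicate 1 was the highest control for Fads2, Elovl2 and Elovl5 and the lowest for Fads1 and Fads3. siYap replicate 1 was the lowest treated library for Fads1, Fads2, Fads3, Elovl1 and Elovl6 and the highest for Scd2.

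Genes with the profile most like that of Scd2, by the root mean square difference of centred log2 CPM over the 13 libraries, were Fam83f (0.448), Tiam2 (0.489) and Igdcc4 (0.537), against a median of 1.93 over all genes compared. Fam83f went from 1.44 ± 0.484 to 0.136 ± 0.0600 FPKM, Tiam2, an exchange factor for Rac, from 6.19 ± 1.91 to 0.577 ± 0.230 FPKM, and Igdcc4 from 2.11 ± 0.476 to 0.237 ± 0.0524 FPKM. For Fads1 the nearest profiles were those of Irs1, an adaptor of the insulin receptor (0.148), Shroom2 (0.152) and Igfbp4, which binds insulin-like growth factors (0.162), against a median of 0.605. Irs1 went from 5.08 ± 0.484 to 9.83 ± 3.11 FPKM. Since these genes were picked for their likeness over the same libraries, the choice set their direction and no test is given.

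Of the 10 genes 6 have an entry among the RefSeq promoters of build GRCm38 (mm10), 8 windows in all, each from 250 bases before to 50 after a start site. The 110 bases before the start are shown for the 3 of these genes that changed, 5′ to 3′ on the strand of the gene, with NF-Y boxes (CCAAT) and GC boxes (GGGCGG) of either strand in capitals, to show how unlike they are.
Elovl6, rose, plus strand, chr3:129532276-129532385: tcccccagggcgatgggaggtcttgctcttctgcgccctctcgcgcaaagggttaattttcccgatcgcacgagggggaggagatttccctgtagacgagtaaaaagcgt
Elovl2, rose, minus strand, chr13:41220404-41220513: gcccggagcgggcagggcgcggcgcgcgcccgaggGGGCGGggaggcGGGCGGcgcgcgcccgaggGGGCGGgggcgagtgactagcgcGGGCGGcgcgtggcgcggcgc
Fads3, fell, plus strand, chr19:10041438-10041547: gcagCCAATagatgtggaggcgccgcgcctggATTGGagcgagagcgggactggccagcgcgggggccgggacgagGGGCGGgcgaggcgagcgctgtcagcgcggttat
The Fads3 window held 2 NF-Y boxes, a match found in 37.4% of all 32851 promoter windows, and neither Elovl6 nor Elovl2 held one. Of the genes that did not pass the test, Elovl1 held 1 and Elovl5 held 2. GC boxes, found in 35.7% of all windows, occurred in Elovl1, Elovl2, Fads2 and Fads3. The sterol response element (0.234% of windows) and the letters of a Tead site (CATTCC, 14.7%) were found in none of the 8 windows. Those of a Tcf/Lef site (CTTTGA, 16.0%) occurred in 1 window each of Elovl6 and Elovl1, and an E-box (CACGTG, 7.15%) in that of Elovl5. Both strands were searched, and a match is a string of letters, not a measured site.

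The lists of other genes that follow are read against the same shares over all tested genes, 16.0% higher and 14.8% lower, and against a median log2 fold change of 0, and nothing particular to a list is drawn from its count. Of 12 tested partners of the elongation cycle and of electron supply, 4 rose and 1 fell, with a median log2 fold change of 0.33. Cyb5, the microsomal cytochrome b5 that feeds electrons to desaturases, rose from 429 ± 79.4 to 978.5 ± 475 FPKM (adjusted p = 0.00183, edgeR). siYap replicate 1, at 314.4 FPKM, lay below all controls (329.0 to 537.3), while the other treated libraries held 803.5 to 1609 FPKM. The mitochondrial outer membrane relative Cyb5b rose from 52.3 ± 9.26 to 165.6 ± 84.2 FPKM (adjusted p = 0.00027). The dehydratases of the elongation cycle were split. Ptplb rose from 7.84 ± 1.28 to 13.2 ± 3.96 FPKM (adjusted p = 0.00406) and Ptplad1 from 112.2 ± 24.3 to 213.1 ± 104.1 FPKM (adjusted p = 0.0125), while Ptpla, named after its values were seen, fell (log2 fold change -0.94, adjusted p = 0.0181). The reductases of the cycle, Hsd17b12 and Tecr, did not pass (adjusted p of 0.103 and 0.490). Of 6 tested further desaturase and elongase paralogs none was called, with adjusted p from 0.0854 (Degs2) to 0.723 (Degs1).

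Fatty acid synthesis supplies the substrate of Elovl6 and Scd1. Its list, which also holds Mlycd of malonyl-CoA breakdown, had 4 of 11 tested genes higher and none lower. Over all tested genes 16.0% were called higher and 14.8% lower. The list is short and was not tested as a set. Its median log2 fold change was 0.71. Fasn, the fatty acid synthase, went from 16.4 ± 5.08 up to 59.1 ± 50.8 FPKM (adjusted p = 0.0021, edgeR). All siYap libraries lay above all controls in FPKM, as for 5.57% of the tested genes. The margin was small, with siYap replicate 5 at 23.62 and siLuc replicate 5 at 23.55 FPKM. In fragments the groups overlapped, at 8046 in siYap replicate 5 and 8338 in siLuc replicate 3. The siYap values of Fasn were 29.3, 47.7, 148, 46.8 and 23.6 FPKM. Its fitted log2 value of 1.86 dropped to 1.22, still called, on leaving out siYap replicate 3. That replicate was the highest here as it was for Elovl6, Scd1 and Fads1. Acacb, the acetyl-CoA carboxylase of the mitochondrial surface, rose from 0.924 ± 0.439 to 7.10 ± 5.52 FPKM (adjusted p = 0.000318), with a log2 fold change of 2.94 from the counts and 1.88 on the log2(FPKM + 1) scale. Mlycd, which breaks malonyl-CoA down, rose from 10.2 ± 1.87 to 24.9 ± 5.42 FPKM (adjusted p = 3.19e-05), and so opposite steps of malonyl-CoA turnover rose together. Acss2, the remaining call, rose from 29.9 ± 13.4 to 55.1 ± 23.15 FPKM (adjusted p = 0.0241, edgeR). That call was lost without siYap replicate 2, 3 or 4 (adjusted p of 0.0757, 0.056 and 0.0516) and with counts summed per file-name number (0.101). Acly and Acaca did not pass (adjusted p of 0.944 and 0.0783).

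Of 24 tested regulators of these genes, 11 rose and 1 fell, with a median log2 fold change of 0.53. Srebf2, the SREBP of sterol synthesis, rose from 4.15 ± 0.952 to 7.95 ± 3.38 FPKM (adjusted p = 0.00353, edgeR) and Rxra, the partner of the liver X receptors, from 29.1 ± 3.39 to 56.6 ± 12.6 FPKM (adjusted p = 9.2e-05). Srebf1, the SREBP of fatty acid synthesis, did not pass at the level of the whole gene (log2 fold change 0.12, adjusted p = 0.687). Usf1, an E-box factor, fell from a mean of 16.1 to 9.29 FPKM, with siYap libraries at 5.74 to 10.8 and siLuc at 12.8 to 18.2 FPKM (adjusted p = 0.000459).

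**Figure D4:**
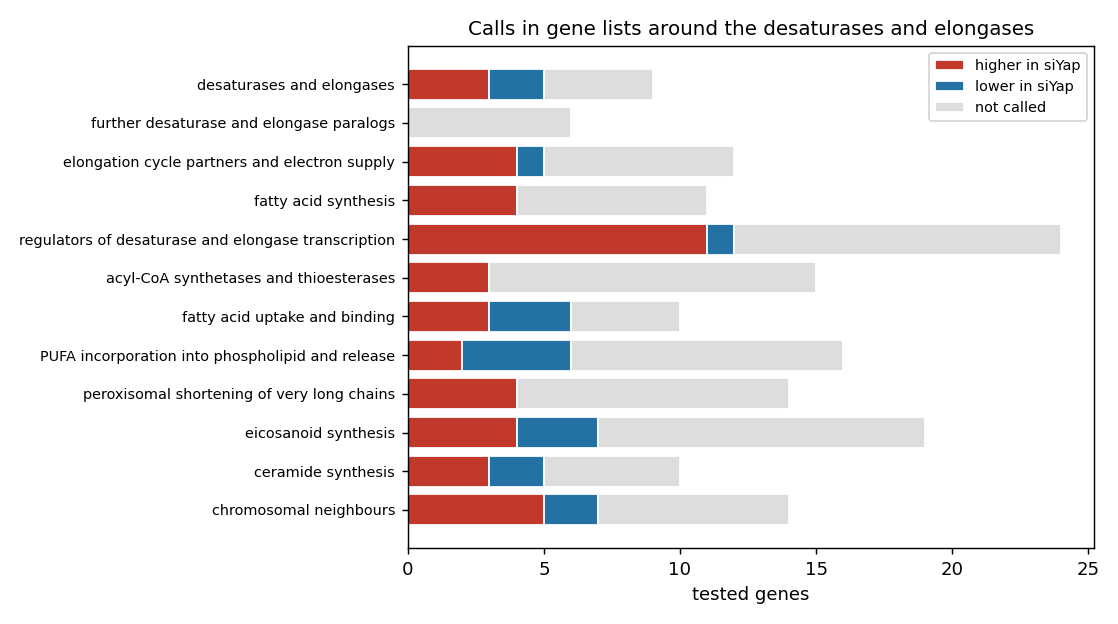
Number of tested genes called higher, called lower or not called in siYap against siLuc tumours (edgeR, adjusted p under 0.05) in each gene list. The desaturases and elongases have 3 higher and 2 lower calls among 9, and the fatty acid synthesis list, which also holds Mlycd, has 4 higher and none lower among 11.

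The next lists cover steps before and after desaturation and elongation. Between 3 of 15 and 6 of 10 tested genes of a list were called, against 30.8% of all tested genes. Of 16 tested genes that place polyunsaturated acids in phospholipid or release them, 2 rose and 4 fell (median log2 fold change -0.18). Lpcat2 fell from 5.98 ± 2.29 to 2.45 ± 1.515 FPKM and Agpat2 from 79.5 ± 16.3 to 50.5 ± 9.90 FPKM (adjusted p of 0.00502 and 0.00623, edgeR), and the Agpat2 call was lost without siYap replicates 1 and 3 (log2 fold change -0.49 against -0.62, adjusted p = 0.0579). Lpcat3, the acyltransferase of polyunsaturated chains in liver, had a log2 fold change of -0.03 (adjusted p = 0.899). Of 14 peroxisomal genes, which shorten very long chains in the last step to docosahexaenoic acid, 4 rose and none fell (median 0.53). Acaa1a rose from 14.5 ± 2.20 to 32.9 ± 9.19 FPKM (adjusted p = 8.99e-05). Of 19 eicosanoid genes 4 rose and 3 fell (median 0.11), of 10 ceramide genes 3 rose and 2 fell (median 0.16), of 15 acyl-CoA synthetases and thioesterases 3 rose and none fell (median 0.20), and of 10 genes of fatty acid uptake and binding 3 rose and 3 fell (median 0.02). In the last list Fabp5, a fatty acid binding protein found in skin and tumours, fell from 319 ± 148 to 59.3 ± 8.59 FPKM (adjusted p = 0.000205, edgeR). All siYap libraries lay below all controls, as for 5.66% of the tested genes.

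Chromosomal neighbours did not move in one direction. Of 14 tested neighbours of the Scd, Fads and Elovl3 genes, 5 rose and 2 fell (median 0.32). Beside Fads1, which rose, Fen1, a flap endonuclease, fell from 6.42 ± 2.37 to 3.53 ± 0.789 FPKM (adjusted p = 0.021, edgeR) and Tmem258, a subunit of oligosaccharyltransferase, fell from 59.6 ± 14.7 to 34.2 ± 10.01 FPKM (adjusted p = 0.0118). Without siYap replicates 1 and 3 both calls were lost, Fen1 at a like size (log2 fold change -0.85 against -0.84, adjusted p = 0.068) and Tmem258 at a smaller one (-0.54 against -0.79, adjusted p = 0.0867). The Fen1 call was also lost without siYap replicate 3 alone (-0.74, adjusted p = 0.0632). On the other side of the Fads genes, Fth1, ferritin heavy chain, rose from 254.8 ± 46.9 to 552.6 ± 155.8 FPKM (adjusted p = 0.000472).

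Some markers of other cells moved with the treatment. Summed FPKM of 8 cholangiocyte markers was 1939 to 5055 in siLuc and 161 to 1142 in siYap. Of these markers 3 were called lower, none higher, and 5 were not called (median log2 fold change -0.4). The sum of 8 macrophage markers was 569 to 1230 against 249 to 528, with 4 lower, none higher and 4 not called (median -1.21). In both sums every siYap library lay below every siLuc library. A sum rests mostly on its most abundant markers, so it does not show that the markers of a list fell together. For 6 neutrophil markers the sums were 36.2 to 194 in siLuc and 162 to 1209 in siYap, with 6 higher calls. The sums of 8 endothelial markers (45.0 to 72.9 against 59.3 to 73.4, 3 higher and none lower) and of 8 stellate cell and fibroblast markers (62.95 to 299 against 169 to 680, 3 higher and none lower) overlapped, as did those of 8 T and B cell markers (3.29 to 20.3 against 3.04 to 9.49, 1 lower of 7 tested). Scd2 is also known from fat and from glia. Of 8 adipocyte markers Lep, Plin1, Cfd, Ucp1 and Retn were under 0.1 FPKM in all libraries, and the 8 summed to 31.65 to 138.5 FPKM in siLuc and 22.1 to 63.6 FPKM in siYap, and 6 glial and Schwann markers summed to 1.90 to 3.53 FPKM in siLuc and 1.24 to 2.67 FPKM in siYap. Of hepatocyte markers 2 rose and 3 fell. All 14 pericentral hepatocyte genes rose (median log2 fold change 5.81), and 6 of 12 periportal genes fell and none rose (median -1.51). Over all tested genes 16.0% were called higher and 14.8% lower. These lists were chosen with earlier results of these data known, so the counts are a description and no test. What part any of these cells or zones had in the values of the desaturases and elongases was not tested.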

How the data were processed

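Per the labels' protocols, tumour RNA was turned into libraries by the ScriptSeq Complete Gold kit for a HiSeq2500. The submitters' processing notes name build mm10 and the tools TopHat2 2.0.8, Trimmomatic 0.30, Cuffdiff 2.1.1 and Cufflinks. Their roles, the annotation, strand settings and the handling of reads with several matches are not stated there. Per the file headers, each deposited table gives raw fragments, which are estimated counts, and FPKM, scaled in the authors' run. Counts were rounded (97.6% to 98.0% were whole within 1e-06). The 3 genes marked as too deep were left out, and none of the 10 genes carried such a mark. The joint FPKM table was left out.

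edgeR 4.0.16 (R 4.3.3, TMM, robust, default filter by group) tested siYap against siLuc over all 13 libraries, tested first on simulated data. Standard errors are the fold change over the root of F. Alternatives used DESeq2 1.42.0 and limma 3.58.1. Libraries shared 5 file-name numbers in siLuc and 3 in siYap, which may be animals. The lowest chi-square per degree of freedom between libraries of a group was 34.8, so none was the same library. The genes and lists were chosen with earlier results of these data known. Named genes outside the 10 were those of smallest p in each list (at most 4), the 3 nearest profiles, Yap1, Stk3 and Stk4, and any said to be chosen later; genes given only as not passing the test, or by their log2 fold change alone, were likewise picked with values in view.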

Additional observations from a re-analysis of the deposited data

Results flagged for a closer look

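Single libraries stood apart from the rest of their group in 7 of the 26 group values looked at (each tested gene and 4 composition values in each treatment group). The composition values are built from the same genes, so the 26 are not independent, and the limit used assumes normal values. The count of 7 therefore cannot be set against a chance rate. A value was taken as apart where its gap to the nearest library exceeded Dixon's 95% limit as a share of the range of the group.

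Scd2 was 10.3 FPKM in siYap replicate 1 against 2.30 to 4.27 FPKM in the other treated libraries, and its share of summed Scd1 and Scd2 FPKM there was 1.02% against 0.191% to 0.296%. This library also had the smallest total and a high Rn45s level. The same share was 21.6% in siLuc replicate 2 against 3.46% to 7.45% in the other controls. siLuc replicate 1 held 170.8 FPKM of Fads2 against 92.9 to 127.3 FPKM, 186.0 FPKM of Elovl5 against 43.7 to 95.6 FPKM, and a Fads2 to Fads1 ratio of 2.40 against 1.03 to 1.56. In fragments its Elovl5 was less far apart, at 13972 against 4063 to 10958. Elovl6 was 17.7 FPKM in siLuc replicate 7 against 5.99 to 11.5 FPKM.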

How the results depend on the processing

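Each of the 9 tested genes was refitted under 24 alternatives. Scd1, Scd2, Fads1, Elovl1 and Elovl6 kept their direction and their side of the threshold in all 24, with log2 fold changes of 0.42 to 0.79, -4.31 to -3.42, 0.79 to 0.99, -0.36 to -0.08 and 1.25 to 1.75. Elovl2 lost its call in 13 alternatives. These were the fit without a filter (0.63, adjusted p = 0.0504), counts summed per file-name number (0.75), the replicate block (0.55), leaving out siYap replicates 1 and 3 together (0.69) and 9 of the 13 fits that leave out 1 library (0.56 to 0.77 over all 13). Fads3 lost its call without siYap replicates 1 and 3 (-0.93). Fads2 passed under upper-quartile scaling (-0.52), and its leave-one-out range was -0.64 to -0.36, passing only without siYap replicate 4. Elovl5 turned sign with the file-code digit as a term (-0.03), and its leave-one-out range was -0.12 to 0.32. Fads6, which did not pass the test, had a leave-one-out range of -0.19 to 0.01. The cause of these shifts was not tested.

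Calls over all genes went from 4668 to 2325 with the replicate block, to 2984 without siYap replicates 1 and 3 and to 2362 at an adjusted p under 0.01; with 1 library left out they were 3325 to 4633. Called genes among the 9 went from 5 to 3 without siYap replicates 1 and 3 and to 3 at the stricter threshold. The replicate number in the titles did not pair the libraries: correlations of deviations between same-numbered libraries were -0.12, 0.13, 0.07, 0.12 and -0.09. Of the 9 tested genes the replicate block ended only the call of Elovl2 (adjusted p = 0.142). Of 61 other named genes, 38 kept direction and call throughout, and the replicate block ended among others the calls of Ptplb (0.76 against 0.77, adjusted p = 0.0657), Ptplad1 (0.93 against 0.95, adjusted p = 0.1) and Fen1 (-0.69 against -0.84, adjusted p = 0.118). The few fragments of Elovl3 limit what depth can show. Scd2 values under 11 FPKM in siYap rest on 422 to 1646 fragments. Reads that fit both Scd1 and Scd2 leave their true level uncertain.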
